A study of Mus musculus with 13 samples.

Results

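miR-128 was examined in the plasma of dystrophic and healthy mice, as the 3 mature forms of this miRNA that the count table lists out of 1907 mature mouse miRNAs. They are mmu-miR-128-3p, mmu-miR-128-1-5p and mmu-miR-128-2-5p. They were chosen by their names, and with their levels across the 4 groups of mice already known, so those levels are given below as a description and without a test. 2 of the 3 had any count, and 1 of them, miR-128-3p, passed the filter on low counts that left 368 of the 1203 miRNAs with a count.

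Small RNA was sequenced in 13 plasma samples, each from 1 male mouse. The sample titles name the group, the animal number and a time point shared by all samples, which the study places after 15 weeks of treatment. The 3 Givinostat mice (31, 34 and 35) were mdx mice that received Givinostat, an oral inhibitor of histone deacetylases, by gavage at 37.5 mg/kg, 5 times a week for 15 weeks. The 4 vehicle mice (40, 41, 42 and 43) were mdx mice that received the methylcellulose suspension alone on the same schedule, and the 3 naive mdx mice (36, 37 and 39) were left untreated. The 3 naive wt mice (86, 89 and 95) were healthy C57BL/10J animals without treatment. mdx mice (C57BL10ScSn-Dmdmdx/J) carry a point mutation in the dystrophin gene in every tissue and lack the full-length protein, and their muscle fibres degenerate and regenerate. The strain field reads C57BL/10J for all samples, and the titles and the study's methods were followed instead. All mice were young adults at purchase, and the naive animals went through the same strength and treadmill tests as the dosed ones.

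A miRNA is a short RNA that guides a repressor complex to messenger RNAs, mainly through its seed, the stretch from base 2 to base 8. miR-128 is best known as an abundant miRNA of neurons, and it is also expressed in skeletal muscle, where it has been studied in the differentiation of muscle cells. It is cut from a pair of hairpins whose 3p arms are the same, so a read of miR-128-3p cannot be assigned to either hairpin. The 5p arms differ and identify the hairpin. Plasma collects miRNAs from many organs and from blood cells, and in such samples a smaller number of releasing cells and less RNA per cell cannot be told apart.

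The sequences of the 3 mature forms are shown because they decide which reads can be told apart; all 3 matched the RefSeq table for GRCm38.p6. Capitals mark the seed.
mmu-miR-128-3p: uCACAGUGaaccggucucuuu
mmu-miR-128-1-5p: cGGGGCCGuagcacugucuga
mmu-miR-128-2-5p: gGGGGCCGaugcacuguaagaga
The first hairpin, Mir128-1, lies on the plus strand at chr1:128202361-128202430, inside an intron of R3hdm1, and the second, Mir128-2, on the minus strand at chr9:112118636-112118711, inside an intron of Arpp21. Both run in the direction of their host gene and overlap 0 of its exons in the GENCODE annotation. In the hairpins, capitals mark the 5p and the 3p arm.
Mir128-1: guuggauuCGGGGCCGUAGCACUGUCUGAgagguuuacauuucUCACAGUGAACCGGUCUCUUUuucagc
Mir128-2: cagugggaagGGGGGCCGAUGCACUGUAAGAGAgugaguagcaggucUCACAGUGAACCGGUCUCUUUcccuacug
The 3p arm is identical over its 21 bases, and the hairpins share 2 bases just before it and 0 just after it. The 5p arms carry the same seed, GGGGCCG, but their longest common run is 7 bases.

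Of 1679 mature mouse miRNAs in the RefSeq table, miR-128-3p alone had the seed CACAGUG. The nearest relatives were miR-27a-3p and miR-27b-3p, which hold the first 6 of its seed bases 1 position further along; they share with it a run of 8 bases and differ from each other at 1 base. Their seeds, in capitals, are therefore not that of miR-128.
mmu-miR-27a-3p: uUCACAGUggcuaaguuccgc
mmu-miR-27b-3p: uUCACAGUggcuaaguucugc
miR-27a-3p lies at chr8:84208727-84208747 and miR-27b-3p at chr13:63300760-63300780, both on the plus strand.

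The libraries held 1364813 to 1437031 counts in Givinostat mice, 1283646 to 1522871 in vehicle mice, 1167161 to 1556118 in naive mdx mice and 1446195 to 2899315 in naive wt mice. What filled them differed between mdx and wt plasma. miR-122-5p, the abundant liver miRNA, took 2.96% to 6.19% of the counts in Givinostat mice, 2.98% to 16.1% in vehicle mice and 1.37% to 10.6% in naive mdx mice, against 37.6% to 64.6% in naive wt mice. The 8 muscle miRNAs listed here together took 38.0% to 46.7% of the counts in Givinostat mice, 35.5% to 42.6% in vehicle mice and 28.3% to 39.7% in naive mdx mice, against 0.707% to 2.09% in naive wt mice. The scaling therefore bears on every comparison with wt plasma, and values are given on more than 1 scale: as counts per 1000000 counts (CPM) after trimmed mean of M-values (TMM) scaling, as CPM of the library total, and as CPM of the counts that remain once the muscle and liver lists are taken off. 1 vehicle library, of mouse 41, stood apart in several listed miRNAs (miR-486a-5p at 6822 CPM, against 1430 to 2067 CPM in the other vehicle mice), and values without it are given for miR-128-3p and for the summed lists it sets the range of.

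miR-128-3p was abundant in every plasma and higher in all 10 mdx mice than in all 3 wt mice. Its counts were 11978, 9478 and 14988 in Givinostat mice, 17078, 8410, 13407 and 27363 in vehicle mice, 18975, 15896 and 19646 in naive mdx mice, and 5697, 4031 and 4355 in naive wt mice. Counting error was at most 1.58% of any of these counts, so it adds little to the spread between mice; it covers counting only, since the reads carried no molecular identifiers. Among all miRNAs of its library, by count, it ranked 17 to 25 in Givinostat mice, 12 to 31 in vehicle mice, 14 to 19 in naive mdx mice and 40 to 50 in naive wt mice.

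After TMM scaling, miR-128-3p stood at 7147, 7423 and 12407 CPM in Givinostat mice. It stood at 11923, 6185, 10316 and 17526 CPM in vehicle mice 40 to 43, at 11885, 11242 and 10672 CPM in naive mdx mice, against 3608, 2274 and 2049 CPM in naive wt mice. The naive mdx mice lay close together, and the vehicle mice spread widely, with mouse 41 the lowest and mouse 43 the highest of all mdx mice. 2 of the 3 Givinostat mice lay below all naive mdx mice, and the third, mouse 35, lay above them. By library totals mouse 35, at 10848 CPM, lay within the naive mdx range of 10577 to 16257 CPM. The naive mdx mice also spread more on that scale (SD 2877 CPM, n = 3). After TMM scaling the means were 8992 ± 2960 CPM for Givinostat (SD, n = 3), 11488 ± 4695 CPM for vehicle (SD, n = 4), 11266 ± 607 CPM for naive mdx (SD, n = 3) and 2644 ± 843 CPM for naive wt (SD, n = 3). From high to low the order of the means was vehicle, naive mdx, Givinostat and naive wt. Only the step between Givinostat and naive wt mice separated neighbours in that order, and the 3 mdx groups did not differ beyond their spread.

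**Figure D1:**
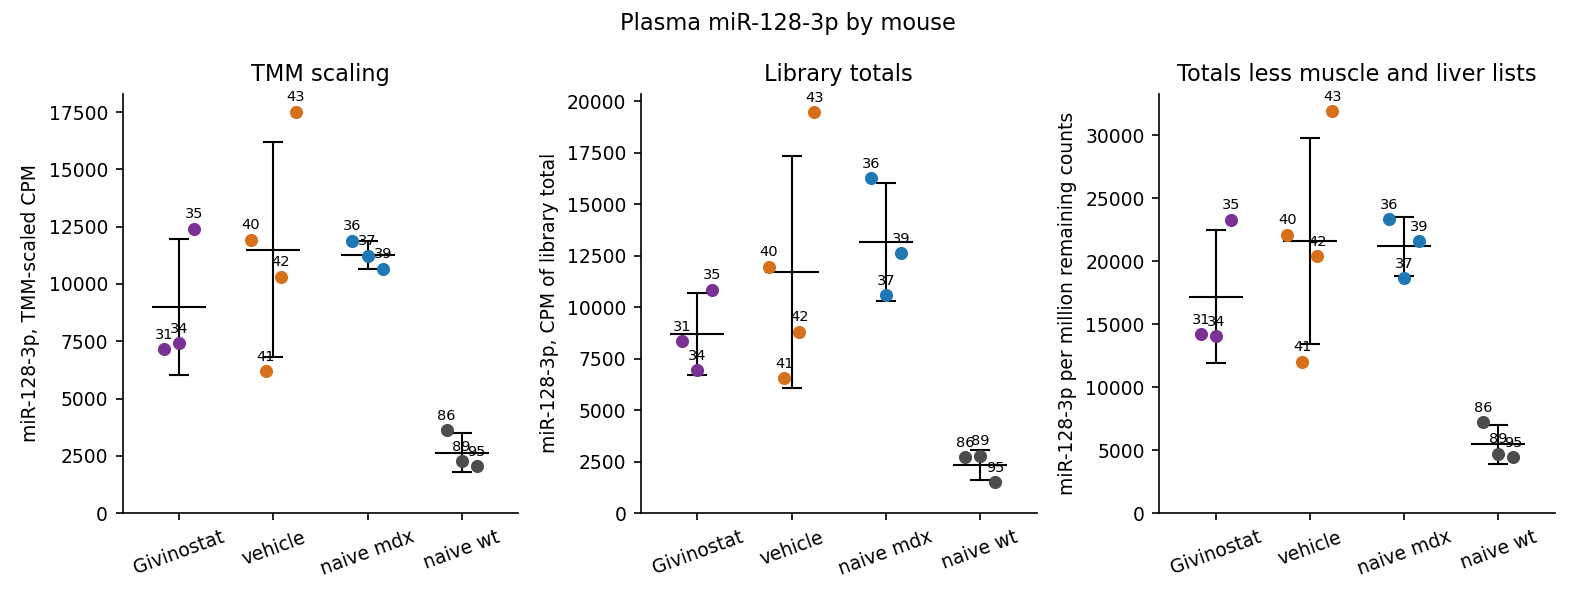
Level of miR-128-3p in each of the 13 plasma samples, numbered by mouse, on 3 scales (left, TMM-scaled CPM; middle, CPM of the library total; right, CPM of the counts left after the muscle and liver lists are removed). Bars are mean ± SD (n = 3 for Givinostat, naive mdx and naive wt, n = 4 for vehicle); on every scale all mdx mice lie above all naive wt mice, and on the TMM scale the lowest mdx mouse is at 6185 CPM and the highest wt mouse at 3608 CPM.

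The comparison of naive mdx with naive wt mice addresses the disease itself. miR-128-3p averaged 4.26-fold higher in naive mdx than in naive wt plasma, a log2 fold change of 2.09 with a standard error (SE) of 0.35 in the edgeR fit, and the groups did not overlap. Of the 368 tested miRNAs, 110 (29.9%), miR-128-3p among them, had all naive mdx mice above all naive wt mice, and 99 (26.9%) were called higher and 61 (16.6%) lower in naive mdx mice at an adjusted p under 0.05 in edgeR's quasi-likelihood test; nothing is read from these shares about miR-128-3p, which was picked with its levels known. Its log2 fold change ranked 45 from the top, and the median over all 368 was 0.04.

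Naive mdx and naive wt mice were apart on each scale used. By library totals miR-128-3p was at 16257, 10577 and 12625 CPM in naive mdx mice, against 2721, 2787 and 1502 CPM in naive wt mice, a ratio of means of 5.63. As CPM of the counts left after the muscle and liver lists were taken off, it averaged 21175 ± 2364 in naive mdx mice, against 5455 ± 1522 in naive wt mice (SD, n = 3 each), with a fitted log2 fold change of 1.96. The log2 values deposited by the authors, scaled per library, were 13.27 to 13.92 in Givinostat mice, 13.19 to 14.76 in vehicle mice and 13.88 to 14.50 in naive mdx mice, against 11.07 to 11.96 in naive wt mice. Library totals moved the median log2 fold change of all 368 miRNAs by 0.39 and upper-quartile scaling moved it by -0.23. The distance of miR-128-3p above that median was 2.06 to 2.18 over the scalings and tools run. A change of scaling moves all miRNAs by nearly the same amount, so this distance could hardly change, and nothing is read from it.

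Both treated mdx groups, set against the same 3 naive wt mice, were likewise apart from them. miR-128-3p was 4.35-fold higher in vehicle than in naive wt mice (log2 fold change 2.12, SE 0.34), where 100 of the 368 miRNAs (27.2%) had all vehicle mice above all wt mice. It was 3.40-fold higher in Givinostat than in naive wt mice (log2 fold change 1.77, SE 0.35), where 105 (28.5%) had all Givinostat mice above all wt mice. The 3 comparisons share their wt mice and are not independent of one another. Over all of them the nearest pair was vehicle mouse 41 and wt mouse 86, which differed 1.71-fold after TMM scaling, and the lowest mdx and the highest wt value differed 2.35-fold by library totals.

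The comparison of vehicle with naive mdx mice shows what gavage and methylcellulose alone went with. Mean miR-128-3p was 1.02 times as high in vehicle as in naive mdx mice (log2 fold change 0.03, SE 0.31), and the groups overlapped. The sign of that small difference was not stable: it was -0.23 without vehicle mouse 43, 0.31 without vehicle mouse 41, and -0.17 by library totals. In this comparison 0% of the 368 miRNAs were called higher and 0% lower by edgeR, DESeq2 or limma (edgeR had 10 higher and 7 lower with a raw p under 0.05), and 8 (2.17%) did not overlap between the groups.

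The comparison of Givinostat with vehicle mice addresses the treatment. Mean miR-128-3p was 0.783 times as high in Givinostat as in vehicle mice (log2 fold change -0.35, SE 0.32), a difference about as large as its SE, and every Givinostat value fell within the range of the vehicle mice. The size rested on single animals: the log2 fold change was -0.10 without vehicle mouse 43, -0.64 without vehicle mouse 41, -0.73 without Givinostat mouse 35 and -0.23 without Givinostat mouse 31. By library totals the Givinostat mice had 8335, 6945 and 10848 CPM, against 11959, 6552, 8804 and 19477 CPM in vehicle mice, and a ratio of means of 0.745. Among all miRNAs edgeR called 1 higher (0.272%) and 0% lower, with 15 higher and 10 lower when only the raw p was held under 0.05, and DESeq2 and limma also called 0 lower, while 28 (7.61%) did not overlap between the groups. The called miRNA, named after its value was seen, was miR-92b-3p, at 137 ± 92.1 CPM in Givinostat mice (SD, n = 3) and 26.8 ± 3.04 CPM in vehicle mice (SD, n = 4), with an edgeR adjusted p of 0.0374 that passed in 8 of 16 alternatives.

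The 5p arms were close to absent. miR-128-1-5p had 1, 0 and 0 counts in Givinostat mice, 3, 2, 2 and 5 counts in vehicle mice, 2, 2 and 2 counts in naive mdx mice and 1, 0 and 1 counts in naive wt mice. It was seen in 10 of the 13 libraries with 21 counts in all, which was too few for the filter. miR-128-2-5p had 0 of 20488010 counts over the 13 libraries, which allows up to 0.146 CPM (3 counts). The first hairpin was thus the only one of the pair whose own 5p arm was detected, and the 5p arm of the second was not detected at this depth. The reads do not say from which hairpin the 3p arm came.

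Over all libraries 1 count of miR-128-1-5p was found for 8157 counts of miR-128-3p. As a share of both arms the 5p counts were 2.74 per 100000 in Givinostat mice (exact binomial 95% interval 0.0695 to 15.3), 18.1 in vehicle mice (9.36 to 31.6), 11.0 in naive mdx mice (4.04 to 24.0) and 14.2 in naive wt mice (1.72 to 51.3). These counts are pooled over the mice of a group, the intervals cover counting error only, and they overlap among all 4 groups. With 1 count of miR-128-1-5p in the Givinostat group no fold is given. After scaling it did not overlap between Givinostat and vehicle mice, as 28 (7.61%) of the 368 tested miRNAs did not. Vehicle and naive mdx mice did not overlap after TMM scaling either, as 8 (2.17%) did not, although both groups held mice with 2 counts. By library totals they overlapped, at 1.31 to 3.56 CPM in vehicle and 1.29 to 1.71 CPM in naive mdx mice. After TMM scaling naive mdx and vehicle mice lay above naive wt mice. Of the 368 tested miRNAs 110 (29.9%) and 100 (27.2%) did so. Among the comparisons made, only Givinostat and naive wt mice overlapped on that scale. Nothing is read from so few counts. As background, 65 other miRNAs were taken whose 5p and 3p arms share a name, with at least 10000 counts on the major arm. A count on the minor arm was not required. Arms whose names differ, as those of miR-128 do, were not among them. Of the 65, 8 (12.3%) had a lower ratio of the minor to the major arm. The median was 457 per 100000, against 12.3 for miR-128.

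Since miR-128 is expressed in neurons and in muscle, lists of miRNAs of both tissues, of its seed relatives, and of red blood cells and liver were set beside it. The lists were drawn up with earlier results of these data known and give no independent support.

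The muscle miRNAs, which are made in skeletal or heart muscle fibres, had log2 fold changes above 0 in naive mdx against naive wt plasma for all 7 of the 8 that were tested. Of these 6 passed the test, where 26.9% of all 368 tested miRNAs were called higher, and the median was 4.26, against 0.04 over all tested. miR-206-3p, a miRNA of regenerating and slow muscle, averaged 144369 ± 55441 CPM in naive mdx and 7514 ± 2171 CPM in naive wt mice (SD, n = 3 each; log2 fold change 4.26, SE 0.36, edgeR adjusted p of 1.46e-07). miR-1a-3p, which promotes the differentiation of muscle cells, and miR-133a-3p, which is cut from the same transcripts and is known for promoting their proliferation, had log2 fold changes of 3.82 and 4.97, and miR-133a-5p had 6.51. miR-499-5p, which lies in a myosin gene, had 0.95 and did not pass (edgeR adjusted p 0.0768). The log2 fold change of miR-128-3p, 2.09, lay below those of the 6 muscle miRNAs that rose, which is given without a test of the difference. Ratios of counts within a library do not move with the scaling. The log2 ratio of miR-128-3p to miR-206-3p averaged -3.61 ± 0.62 in naive mdx mice, against -1.51 ± 0.14 in naive wt mice, and its log2 ratio to miR-133a-3p averaged -2.90 ± 0.42 in naive mdx and -0.04 ± 0.59 in naive wt mice (SD, n = 3 each).

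Of the 16 neuron and glia miRNAs only 8 had enough counts to be tested. 0 were called higher and 5 lower in naive mdx mice, where 26.9% of all 368 tested miRNAs were called higher and 16.6% lower, and all 8 log2 fold changes were below 0, from -2.47 to -0.29 with a median of -1.65, against 0.04 over all tested. By library totals miR-132-3p turned to just above 0. miR-7a-5p, which is enriched in neurons and hormone-secreting cells, averaged 152 ± 39.6 CPM in naive mdx and 426 ± 125 CPM in naive wt mice (SD, n = 3 each; log2 fold change -1.49, SE 0.40, edgeR adjusted p of 0.00645). miR-218-5p, a miRNA of motor neurons, averaged 50.1 ± 24.5 CPM in naive mdx and 175 ± 34.9 CPM in naive wt mice (SD, n = 3 each; log2 fold change -1.80, SE 0.50, edgeR adjusted p of 0.00861). miR-129-5p (-1.20, edgeR adjusted p 0.0720) and miR-132-3p (-0.29, edgeR adjusted p 0.425), an activity-dependent neuronal miRNA, did not pass. The defining neuronal miRNA, miR-124-3p, had 1 to 23 counts per library and was not tested. The 5 calls became 0 with limma on the deposited values, 2 without naive wt mouse 89 and 3 without naive mdx mouse 36.

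The summed level of the 16 neuron and glia miRNAs was 313 to 472 CPM in Givinostat mice, 181 to 612 CPM in vehicle mice (181 to 285 CPM without mouse 41), 203 to 337 CPM in naive mdx mice and 619 to 1055 CPM in naive wt mice. By library totals it was 274 to 516 CPM in Givinostat mice, 201 to 648 CPM in vehicle mice (201 to 247 CPM without mouse 41) and 278 to 344 CPM in naive mdx mice, against 467 to 1294 CPM in naive wt mice, so on that scale Givinostat and vehicle mice overlapped wt mice and naive mdx mice did not. miR-128-3p alone was thus above the summed level of that list in every library. The log2 ratio of miR-128-3p to miR-7a-5p averaged 6.25 ± 0.40 in naive mdx and 2.63 ± 0.77 in naive wt mice (SD, n = 3 each). The summed muscle list was 325458 to 534642 CPM in Givinostat mice, 319567 to 472267 CPM in vehicle mice, 207198 to 422212 CPM in naive mdx mice and 9637 to 17566 CPM in naive wt mice. From which tissue the miR-128-3p in plasma came was not tested.

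**Figure D2:**
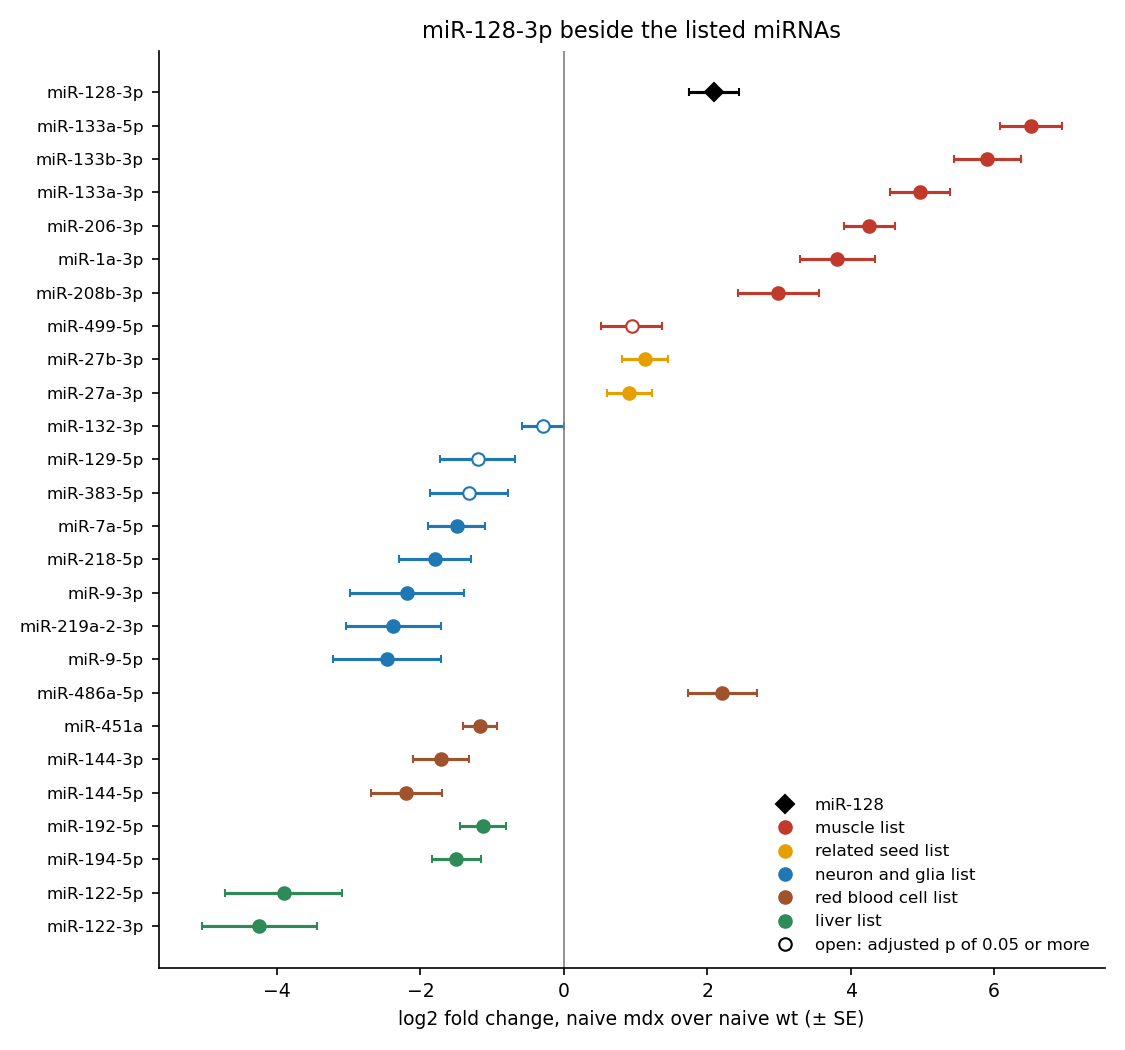
Log2 fold change with its SE in naive mdx over naive wt plasma (n = 3 each) for miR-128-3p (diamond, shown without a test) and the tested members of 5 lists, with open symbols for an edgeR adjusted p of 0.05 or more. miR-128-3p at 2.09 lies below 6 of the 7 muscle miRNAs, above miR-27a-3p and miR-27b-3p, and on the other side of 0 from all 8 neuron and glia miRNAs.

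Both seed relatives rose in naive mdx mice, where 26.9% of all 368 tested miRNAs were called higher. Their fold changes were smaller than that of miR-128-3p, and the difference was not tested. miR-27b-3p averaged 8854 ± 4603 CPM in naive mdx and 4035 ± 407 CPM in naive wt mice (SD, n = 3 each; log2 fold change 1.13, SE 0.32, edgeR adjusted p of 0.00962). miR-27a-3p averaged 6231 ± 2349 CPM in naive mdx and 3312 ± 724 CPM in naive wt mice (SD, n = 3 each; log2 fold change 0.91, SE 0.31, edgeR adjusted p 0.0267). Both overlapped between the groups, and neither passed without naive mdx mouse 37 or with edgeR fitted to the 2 groups alone. miR-27a-3p was also lost with upper-quartile scaling and without naive mdx mouse 39, naive wt mouse 89 or naive wt mouse 95. The miR-27 pair, known from blood vessels, fat and muscle, is of the same order of abundance as miR-128-3p in plasma: the log2 ratio of miR-128-3p to miR-27b-3p averaged 0.17 ± 0.55 in Givinostat mice (SD, n = 3), 0.55 ± 0.77 in vehicle mice (SD, n = 4), 0.50 ± 0.90 in naive mdx mice (SD, n = 3), against -0.65 ± 0.30 in naive wt mice (SD, n = 3). In this ratio mdx and wt mice overlapped, with vehicle mouse 41 (-0.42) below naive wt mouse 86 (-0.31).

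Red blood cells and liver also release miRNAs into plasma, and their lists moved too. miR-451a, the main miRNA of red blood cells, fell in naive mdx against naive wt mice (log2 fold change -1.17, SE 0.24, edgeR adjusted p 0.00106), and so did miR-144-3p (-1.72) and miR-144-5p (-2.20), its partners on the same transcript. miR-486a-5p, which red blood cells and muscle both make, rose (log2 fold change 2.21, SE 0.48, edgeR adjusted p of 0.00163). Over all 368 tested miRNAs 26.9% were called higher and 16.6% lower. miR-451a did not pass by library totals (edgeR adjusted p 0.0758) or with limma (adjusted p 0.136), and miR-144-3p did not pass with limma (adjusted p 0.0579). All 4 liver miRNAs fell in the TMM-scaled fit, where 16.6% of all tested miRNAs did, with a median log2 fold change of -2.70. miR-192-5p did not pass by library totals (edgeR adjusted p 0.100) or with limma (adjusted p 0.118). The summed red blood cell list was 5355 to 6752 CPM in Givinostat mice, 4101 to 9864 CPM in vehicle mice (4101 to 5383 CPM without mouse 41), 3827 to 4073 CPM in naive mdx mice and 5339 to 6599 CPM in naive wt mice. By library totals naive mdx mice, at 3601 to 5571 CPM, overlapped naive wt mice, at 3914 to 8089 CPM. The part of blood cells in the level of miR-128-3p was not tested.

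In vehicle against naive mdx mice and in Givinostat against vehicle mice 0 members of any of these lists were called by edgeR or DESeq2. At a raw p under 0.05 edgeR had 1 member of the red blood cell list higher in vehicle than in naive mdx mice, and 1 higher and 1 lower in Givinostat than in vehicle mice. The log2 ratio of miR-128-3p to miR-206-3p averaged -4.67 ± 0.46 in Givinostat mice (SD, n = 3), -4.23 ± 0.74 in vehicle mice (SD, n = 4) and -3.61 ± 0.62 in naive mdx mice (SD, n = 3), and the ranges of Givinostat and vehicle, and of vehicle and naive mdx, overlapped. Those of Givinostat (-5.20 to -4.34) and naive mdx mice (-4.16 to -2.94) did not. This gap was not tested, no share over other ratios was computed, and nothing is read from it. The log2 ratio of miR-128-3p to miR-133a-3p averaged -3.16 ± 0.08 in Givinostat mice (SD, n = 3), -3.21 ± 0.43 in vehicle mice (SD, n = 4) and -2.90 ± 0.42 in naive mdx mice (SD, n = 3). There the Givinostat range (-3.25 to -3.11) lay within those of vehicle (-3.45 to -2.56) and naive mdx mice (-3.32 to -2.47).

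**Figure D3:**
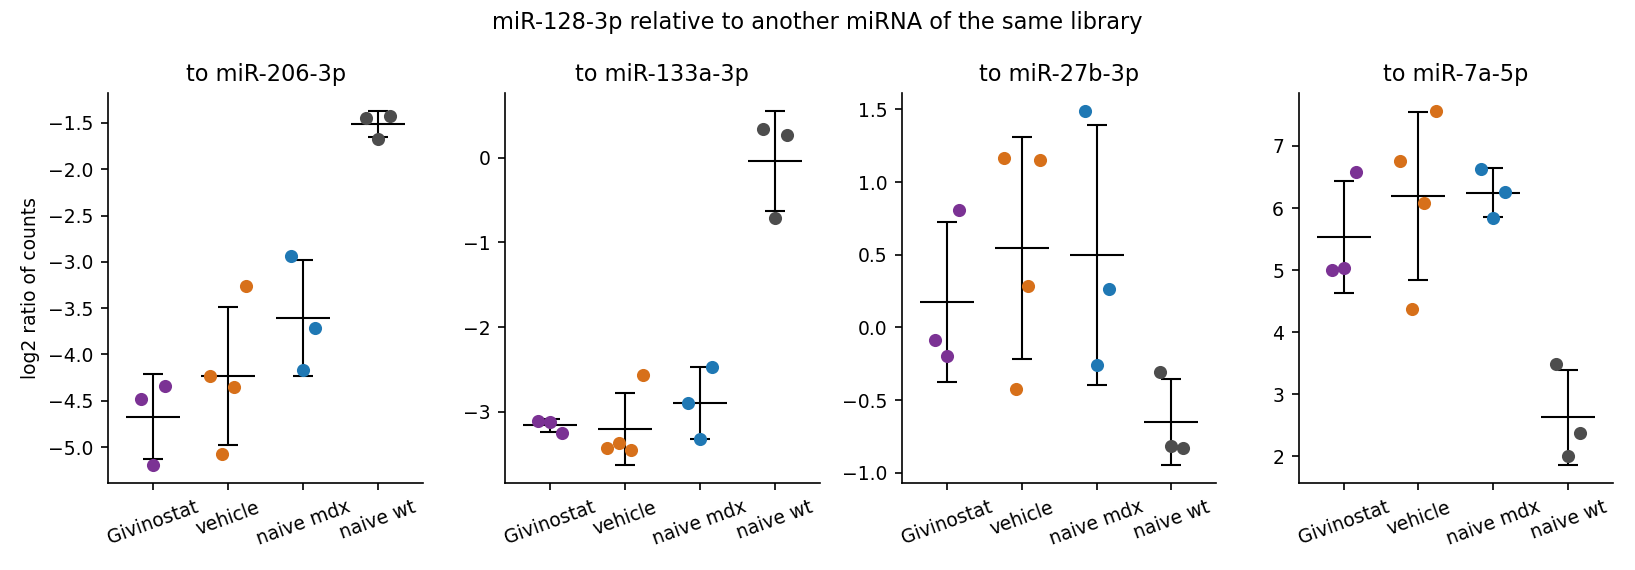
Log2 ratio of the miR-128-3p count to the count of another miRNA in the same library, by mouse, with mean ± SD (n = 3 for Givinostat, naive mdx and naive wt, n = 4 for vehicle). Relative to miR-206-3p and miR-133a-3p all mdx mice lie below all naive wt mice, while relative to miR-7a-5p they lie above them. Relative to miR-27b-3p mdx and naive wt mice overlap.

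Within groups, the spread of miR-128-3p between mice was ordinary. Its pooled within-group SD was 0.46 on the log2 CPM scale, the median over the 368 tested miRNAs was 0.44, and 55.7% of them had a smaller one.

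The miRNAs whose levels followed miR-128-3p most closely over the 13 libraries, by Pearson's r of log2 CPM, were miR-1943-5p (r = 0.98), miR-149-5p (r = 0.97), miR-30d-5p (r = 0.96), miR-193b-3p (r = 0.96) and miR-365-2-5p (r = 0.95). These values are descriptions over libraries that share their depth and scaling, and they hold the gap between mdx and wt mice. With the group means taken out r was 0.88 for miR-1943-5p, 0.83 for miR-149-5p, 0.84 for miR-30d-5p, 0.73 for miR-193b-3p and 0.77 for miR-365-2-5p. Over the 10 mdx libraries alone it was between 0.77 (miR-30d-5p) and 0.86 (miR-1943-5p). miR-149-5p averaged 2349 ± 861 CPM in naive mdx and 160 ± 46.6 CPM in naive wt mice, and miR-30d-5p averaged 37107 ± 5655 CPM in naive mdx and 17595 ± 2890 CPM in naive wt mice (SD, n = 3 each).

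The muscle miRNAs differed among themselves in how they followed miR-128-3p. For miR-133b-3p r was 0.95 over all 13 libraries, 0.69 with group means removed and 0.72 over the 10 mdx libraries. Over the same sets r was 0.93, 0.61 and 0.69 for miR-133a-3p, but 0.91, 0.41 and 0.16 for miR-133a-5p. For miR-206-3p r was 0.88 over all libraries but 0.15 with group means removed and -0.23 in the 10 mdx libraries. For miR-1a-3p it was 0.78 over all libraries, -0.12 with group means removed and -0.41 in the mdx libraries. In the mdx libraries r was also below 0 for miR-208b-3p (-0.28) and miR-499-5p (-0.53). miR-27b-3p had an r of 0.62 over all libraries and -0.18 in the mdx libraries.

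miR-7a-5p ran opposite to miR-128-3p, with r of -0.94 over all 13 libraries, -0.88 with the group means removed and -0.93 over the 10 mdx libraries. By library totals r was weaker, at -0.73 over all 13 libraries. On the TMM scale miR-7a-5p ranked 367 from the top by r among the tested miRNAs. It was at 224, 226 and 130 CPM in Givinostat mice 31, 34 and 35. In vehicle mice 40 to 43 it was at 110, 299, 152 and 92.9 CPM. Mouse 41 had the lowest miR-128-3p and the highest miR-7a-5p of the mdx mice, and mouse 43 the highest miR-128-3p and the lowest miR-7a-5p.

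**Figure D4:**
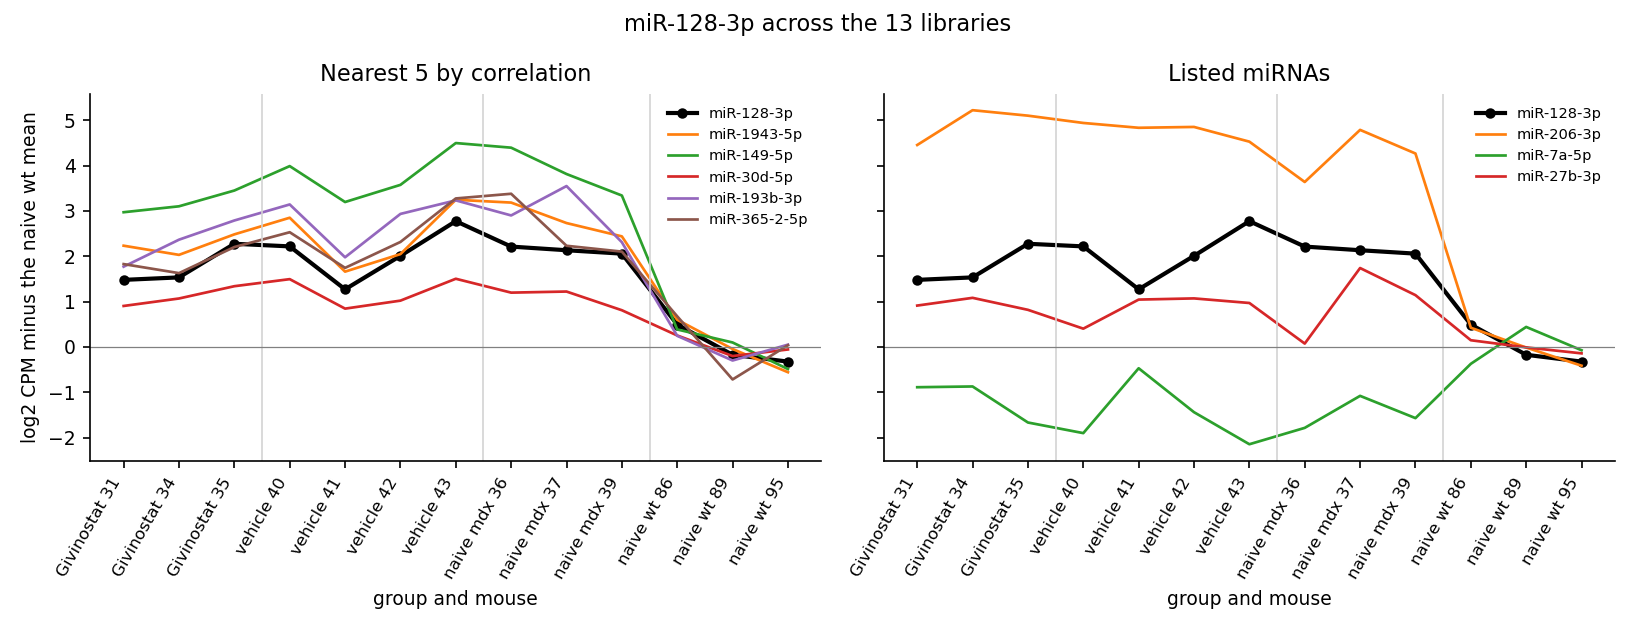
Log2 CPM minus the naive wt mean in each of the 13 libraries for miR-128-3p (black, with points) beside the 5 miRNAs closest to it by Pearson's r (left) and beside miR-206-3p, miR-7a-5p and miR-27b-3p (right). The 5 on the left share its dip in vehicle mouse 41, where miR-128-3p was at 6185 CPM, while miR-206-3p stayed level there and miR-7a-5p was at its highest among the mdx mice.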

How the data were processed

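Small RNA-seq libraries were made from plasma, 1 per mouse (Givinostat n = 3, vehicle n = 4, naive mdx n = 3, naive wt n = 3). In the submitters' processing notes the tools are Bowtie 1.0.0, bcl2fastq 1.37.0 and cutadapt 1.4.2, while the study's methods name Trimmomatic; reads were mapped to the mouse genome and annotated with miRBase. The libraries were cut to the size of mature miRNAs. The authors deposited raw counts per mature miRNA, which were used throughout. They also deposited log2 values, each the log2 of the count plus a constant per library, with none for counts of 3 or fewer; these constants were not DESeq2 size factors. 0 columns were unmatched.

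Counts were TMM-scaled, filtered (filterByExpr, minimum count 10) and fitted with 1 mean per group over all 13 libraries in edgeR 4.0.16 (quasi-likelihood, R 4.3.3), with Benjamini-Hochberg adjusted p under 0.05 over 368 miRNAs. The p-values set a difference between group means against the spread between mice, estimated over all 13 libraries. The SE is the log2 fold change over the square root of F. Alternatives were library totals, RLE or upper-quartile factors as scaling, a mean of at least 10 CPM as filter or none, DESeq2 1.42.0, limma 3.58.1 on the deposited log2 values (missing as 0, pseudocount 1), 2 groups alone, and each library left out. Totals less the muscle and liver lists, and the comparisons of vehicle and Givinostat with wt, were added after seeing the data. The fit was tested on simulated counts. Libraries of a group were checked for copies: chi-square per degree of freedom was at least 104.5. The limit behind a count of 0 (3 counts) lay between 1.03 and 2.57 CPM per library. Positions are 1-based, from RefSeq and GENCODE on GRCm38.

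The members and lists were chosen with earlier results of these data known. Named are the 3 members, up to 4 members per list with the highest mean CPM among those tested, and the 5 miRNAs nearest by Pearson's r; others were named after their values were seen.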

Additional observations from a re-analysis of the deposited data

Results flagged for a closer look

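In 5 of 32 sets of vehicle values examined, 1 mouse lay past Dixon's 95% critical value from the other 3, which independent sets would do by chance in about 1 in 20; these sets share their mice, and 4 of the 5 are of mouse 41. Vehicle mouse 41 had 369 CPM of miR-133b-3p (others 727 to 793), 6822 CPM of miR-486a-5p (others 1430 to 2067), 75.0 CPM of miR-129-5p (others 14.7 to 22.3) and 110 CPM of miR-218-5p (others 30.8 to 37.7). Vehicle mouse 42 had 46.2 CPM of miR-122-3p (others 5.12 to 10.3). Mouse 41 also had the lowest miR-128-3p of the vehicle mice (6185 CPM), which by itself did not lie that far out. Without mouse 41 the log2 fold change of miR-128-3p was 0.31 in vehicle against naive mdx mice and -0.64 in Givinostat against vehicle mice.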

How the results depend on the processing

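For miR-128-3p the log2 fold change in naive mdx against naive wt mice was 1.87 to 2.52 over 9 alternatives and 1.97 to 2.35 with 1 mouse left out. In vehicle against naive mdx mice it was -0.27 (limma) to 0.13, and -0.23 to 0.31 with 1 mouse left out, so its sign depended on the setting. In Givinostat against vehicle mice it was -0.43 to -0.22, and -0.73 to -0.10 with 1 mouse left out. The count of miRNAs called lower in naive mdx against naive wt mice, 61, became 96 with upper-quartile factors, 23 by library totals and 12 with limma, and 40 (without naive wt mouse 89) to 64 with 1 mouse left out; the count called higher, 99, was 70 to 118. Higher calls in Givinostat against vehicle mice, 1, became 3 with upper-quartile factors, 2 by library totals, 2 with totals less the muscle and liver lists, 6 with no filter, 0 at a mean of at least 10 CPM, 2 with DESeq2 and 0 with limma, and 0 to 6 (6 without Givinostat mouse 31) with 1 mouse left out. The cause was not tested. With 3 or 4 mice a group, differences of the size of the SE cannot be told from 0, and the 5p arms are limited by depth.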

Other observations

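With group means taken out, the miRNAs nearest to miR-128-3p over the 13 libraries were partly others than before: miR-674-3p (r = 0.90, against 0.67 with the groups left in), miR-486a-3p (r = 0.88), miR-1964-3p (r = 0.88), miR-1943-5p (r = 0.88) and miR-676-3p (r = 0.87, against -0.14 with the groups left in). Among the listed miRNAs miR-144-3p and miR-144-5p ran opposite to miR-128-3p over the 10 mdx libraries, both with r of -0.85, and miR-219a-2-3p, a miRNA of oligodendrocytes, with r of -0.82. These are descriptions over libraries that share depth and scaling.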
